A study of Sus scrofa with 64 samples.

Results

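The transcriptome of pig liver was compared with that of 15 other tissues of the same animals. The 4 arrays labelled Liver were taken by their label, out of 64 arrays in all, and the other 60 arrays came, 4 each, from the nervous system and endocrine glands (Hypothalamus, Olfactory bulb, Adenohypophisis, Neurohypophisis, Pineal gland, Thyroid gland, Adrenal medulla and Adrenal cortex), from Ileum and Stomach, from Blood, from Abdominal fat tissue and Back fat tissue, and from Diaphragm muscle and Biceps femoris muscle. The animals were a Large White male (87 days, 38.8 kg), a Large White female (87 days, 36.2 kg), an Iberian female (89 days, 32.8 kg) and an Iberian male (89 days, 25.4 kg). Each combination of breed and sex is thus 1 pig, and breed cannot be told apart from weight. All were untreated, and each array holds the RNA of 1 tissue of 1 animal on an Affymetrix porcine chip, so that a liver sample is the whole organ piece with hepatocytes, Kupffer cells, endothelium, bile ducts and the blood left in it. In such tissue fewer cells of a type and less RNA per cell cannot be told apart.

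Hepatocytes make most of the proteins of blood plasma, turn ammonia into urea, break down amino acids, make bile acids and glucose, and detoxify drugs. They send glucose and ketone bodies to other organs, and for several steps of metabolism they use an enzyme form of their own where brain, muscle or fat use another. Levels below are log2 values after RMA (robust multiarray average), so that 1 unit is a doubling of signal, and a probe is a probe set of the chip. A difference is the liver level minus the mean of the 15 other tissues, from a limma fit with tissue, breed and sex over all arrays, with its standard error (SE) and a p adjusted after Benjamini and Hochberg over 23935 probes. A probe passed at an adjusted p under 0.05. Values of the 4 livers are given in the order Large White male, Large White female, Iberian female and Iberian male. Where a gene has several probes the brightest was taken, which left 6592 named genes.

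The label was checked against 4 hepatocyte markers. The level of ALB (albumin) was 14.08, 14.15, 14.12 and 14.15 in the 4 livers and had a median of 4.52 in the other arrays, with a highest value of 11.04. CPS1, the entry enzyme of the urea cycle, was at 11.22, 11.64, 11.56 and 11.39 against at most 8.77 elsewhere. F9 (coagulation factor IX) was at 11.87, 11.84, 12.09 and 12.03 and no higher than 4.84 elsewhere, and APOA2, an apolipoprotein of high density lipoproteins, at 11.67, 11.25, 11.50 and 11.35 and no higher than 4.09. All 4 livers thus lay above all other arrays for each marker, by a difference of 9.17 ± 0.64 (SE) for ALB, 7.59 ± 0.15 for CPS1, 8.28 ± 0.11 for F9 and 8.44 ± 0.12 for APOA2, and the largest adjusted p of these, that of ALB, was 5.8e-18. Outside liver, 3 arrays held albumin above the rest, namely the Abdominal fat tissue of the Large White female (11.04), the Neurohypophisis of the Iberian male (10.07) and the Back fat tissue of the Large White female (8.60), while the other 57 were below 8. The same 3 arrays had FGB (fibrinogen beta chain) at 8.26, 7.12 and 5.82 and HP (haptoglobin) at 8.65, 7.35 and 6.11. APOH, another plasma protein gene, was lower in them, at 5.43, 3.99 and 3.54. Whether RNA of liver was carried over into these samples was not tested, and the highest values of liver genes outside liver are to be read with this limit. Without them 695 instead of 690 probes lay above all other arrays and 133 instead of 132 below them, so that the counts hardly depended on them. The 3′ minus 5′ signal of the GAPDH control, a measure of RNA integrity, was between 0.737 and 1.03 in the livers, inside the range of 0.163 to 1.71 of the other arrays.

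More probes were lower than higher in liver, but the largest differences were upwards. Of all probes 4898 (20.5%) were higher in liver than the mean of the other tissues and 6893 (28.8%) were lower. A difference of at least 1 log2 unit was reached by 1848 higher probes (7.72%) and by 1977 lower ones (8.26%), and among the named genes by 759 (11.5%) and 652 (9.89%). Among the named genes 1725 (26.2%) were higher and 2234 (33.9%) lower, with a median difference of -0.07 over all of them, but 207 genes exceeded a difference of 3 upwards and 39 downwards. Beyond 5 there were 95 genes upwards and 1 downwards. The difference from the mean of 15 tissues can rest on a few of them, so liver was also set against each tissue by itself. It was higher than all 15 for 722 probes (3.02%) and lower than all 15 for 126 probes (0.526%), where the largest of the 15 pairwise p was adjusted, or for 304 (4.61%) and 53 (0.804%) named genes. The count of 126 went down to 77 without the arrays of the Large White male and to 80 without those of the Large White female. When the 60 other arrays were taken as 1 group, so that the error holds the spread between tissues, 2013 probes were higher and 1514 lower, a setting called below the spread between tissues, which turns the share of higher probes among those that passed from 41.5% to 57.1%.

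Liver was also compared with every other array by itself. In 690 probes (2.88%; 312 named genes, 4.73%) all 4 livers were above all 60 other arrays, and in 132 probes (0.551%; 55 named genes, 0.834%) below all of them. The gap was at least 1 log2 unit in 286 of the former and in 2 of the latter, and the largest gaps were 7.31 and -1.66. Without all arrays of 1 animal, its liver among them, fewer livers had to be low and fewer arrays had to be undercut. The number of probes below was then 194, 219, 259 and 221, in the order of the animals given above. Without the liver of 1 animal alone it was 174, 178, 163 and 182. The median liver level was 9.28 in the probes above and 5.65 in the probes below.

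**Figure D1:**
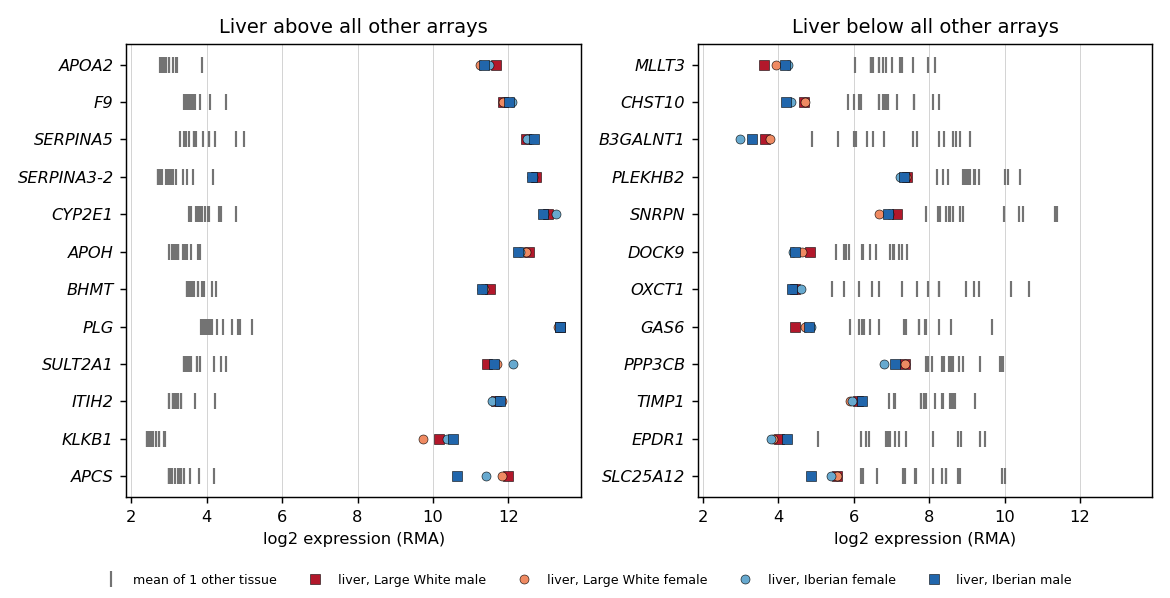
Log2 level of the 12 named genes with the widest gap above (left) and below (right) all other arrays; coloured points are the 4 livers and grey ticks the means of the 15 other tissues. The raised genes stand at least 6.18 units above the highest other array, and the lowered genes less far below the lowest, MLLT3 by -1.21.

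The 12 genes with the widest gap above were APOA2, F9, SERPINA5, SERPINA3-2, CYP2E1, APOH, BHMT, PLG, SULT2A1, ITIH2, KLKB1 and APCS. Of these, 9 encode proteins secreted into plasma. SERPINA5, the protein C inhibitor, was at 12.48, 12.63, 12.50 and 12.67 in liver and at most at 5.53 elsewhere. SERPINA3-2, of the antichymotrypsin family, was at 12.73, 12.63, 12.64 and 12.62 against a highest other value of 5.73. KLKB1, plasma prekallikrein, was at 10.17, 9.75, 10.37 and 10.53 and between 2.25 and 3.38 in all other arrays. The other 3 were enzymes. CYP2E1, which oxidises ethanol, was at 13.06, 12.93, 13.26 and 12.91. BHMT, which remethylates homocysteine with betaine, was at 11.51, 11.35, 11.31 and 11.29, and SULT2A1, a sulfotransferase of steroids and bile acids, at 11.44, 11.69, 12.12 and 11.62. The livers differed among themselves by under 1 unit in all of these, except APCS (serum amyloid P component), which was lowest at 10.64 in the Iberian male and between 11.41 and 11.996 in the others. By difference the 10 highest genes were APOC3 (9.85 ± 0.48), SERPINA3-2 (9.53 ± 0.21), GC (9.47 ± 0.28), VTN (9.22 ± 0.28), ALB, APOC2 (9.16 ± 0.25), CYP2E1 (9.10 ± 0.25), FGB (9.09 ± 0.46), PLG (9.07 ± 0.21) and APOH (9.07 ± 0.19), all with an adjusted p of 5.8e-18 or less. All but CYP2E1 encode plasma proteins.

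Genes for plasma proteins were raised as groups. Of 19 carrier proteins with a probe, 18 were higher in liver and 17 were higher than in each other tissue, with a median difference of 8.11. GC, which carries vitamin D, was at 14.20, 13.96, 13.78 and 13.79, close to the top of the scale of the chip, and HP (haptoglobin) was at 13.38, 13.44, 13.40 and 13.20. TF (transferrin) was at 13.44, 13.27, 13.56 and 13.84 with a difference of 8.05 ± 0.57, but Hypothalamus reached a mean of 12.45, and although all 4 livers lay above all other arrays the contrast with each tissue did not pass for this gene. Of 16 genes of apolipoproteins and lipoprotein handling 15 were higher (median 5.08) and 11 were highest in liver. Ileum, which also secretes lipoproteins, was the next tissue for APOB, with a mean of 8.48 against 12.14, 12.18, 12.44 and 12.08 in liver, and for APOC3, with 6.81 against 13.63, 13.78, 13.72 and 13.74.

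More genes of coagulation and fibrinolysis were higher than lower in liver. Of 20 genes 12 were higher, a larger share than the 26.2% of all named genes, and 5 were lower (median 4.65). The lower ones were no larger a share than the 33.9% of all named genes. The higher ones included FGB (12.33, 12.36, 12.30 and 12.20 in liver), PLG (plasminogen; 13.37, 13.33, 13.36 and 13.37), F9 and KLKB1, zymogens or clot proteins that circulate in plasma. The 5 lower genes were VWF, PLAT, F3, PLAU and THBD, known from endothelium and other cells rather than hepatocytes. VWF (von Willebrand factor) was at 5.34, 5.01, 4.93 and 5.26 in liver and never under 5.69 elsewhere, a difference of -1.86 ± 0.19 (adjusted p = 2.6e-12), although 2 further probes of this gene did not pass. PLAT (tissue plasminogen activator) was at 3.57, 3.30, 3.17 and 3.02, also with a difference of -1.86 ± 0.16, and there the range of the other arrays (3.22 to 6.79) overlapped that of liver. F3 (tissue factor) had a difference of -1.35 ± 0.29, PLAU (urokinase) of -0.97 ± 0.17 and THBD (thrombomodulin) of -0.91 ± 0.20. The calls of F3, PLAU and THBD were lost against the spread between tissues.

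Complement and acute phase genes were mostly raised. Of 23 complement genes 22 were higher and 14 highest in liver (median 3.80). VTN (vitronectin) was at 13.37, 13.38, 13.55 and 13.63, C5 at 11.43, 11.24, 11.49 and 11.38, and C8G at 11.67, 11.63, 11.78 and 11.81. CFB (factor B) was at 13.03, 13.08, 13.11 and 12.96 in liver, with Stomach next at a mean of 11.30. CFD (factor D), a product of fat, was the exception at 7.65, 7.85, 7.51 and 7.74, a difference of -0.69 ± 0.15 (adjusted p = 0.00011), lost against the spread between tissues. C1QA, a macrophage product, was at 9.42, 9.77, 9.55 and 9.67 and overlapped the other arrays, which reached 10.34. Of 12 acute phase genes 11 were higher and 9 highest (median 6.83), led by SERPINA3-2, HP, APCS and FGL1 (11.55, 11.38, 11.82 and 11.65). SAA2 was lower by its brightest probe (-0.33 ± 0.12, adjusted p = 0.019) and higher by its other probe (1.52), so that no direction is given for it. Its call was lost without either Iberian liver.

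Nitrogen metabolism came next. Of 7 genes of the urea cycle and ammonia handling 6 were higher and 4 highest (median 5.36). OTC (ornithine transcarbamylase) was at 8.64, 8.66, 8.80 and 8.80 and ASS1 (argininosuccinate synthase) at 11.83, 12.72, 12.61 and 12.29. For CPS1, OTC and ASS1 the next tissue was Ileum, with means of 7.96, 5.95 and 11.40. ARG1, the liver arginase, was at 10.96, 11.08, 12.29 and 11.91, but Blood, with a mean of 11.83, overlapped them, whereas Stomach was lowest at 2.65. GLUL (glutamine synthetase), which is found in few hepatocytes around the central veins, was the lower member at 9.39, 9.07, 9.08 and 8.79, a difference of -1.48 ± 0.19 (adjusted p = 2.3e-09). Of its 3 probes 2 passed downwards and 1 upwards (0.35), and the call of the brightest was lost against the spread between tissues. Of 25 genes of amino acid breakdown 23 were higher and 15 highest (median 3.12). HPD, of tyrosine breakdown, was at 9.67, 10.11, 10.39 and 9.76 and between 2.34 and 3.60 elsewhere. CTH (cystathionine gamma-lyase) was at 10.83, 11.16, 12.53 and 11.87, with both Iberian livers above both Large White ones, and AGXT2 at 10.75, 10.68, 10.48 and 10.33. All 11 peroxisomal genes were higher (median 2.71). Among them UOX (urate oxidase), which degrades uric acid in pigs, was at 8.40, 7.69, 9.02 and 9.46 and between 2.71 and 3.61 elsewhere, and HAO1 (glycolate oxidase) was at 10.36, 9.35, 9.82 and 9.80.

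Most genes of bile acid and drug metabolism were higher in liver as well. Of 14 bile acid genes 13 were higher and 8 highest (median 2.33). SLC10A1, which takes up bile acids from blood, was at 9.87, 9.22, 9.73 and 9.83 and no higher than 3.91 elsewhere. CYP27A1 (sterol 27-hydroxylase) was at 10.29, 10.30, 10.75 and 11.12. ABCC2, the exporter of conjugates into bile, was at 6.35, 7.05, 5.99 and 5.31, still above the highest other array at 4.43. FABP6, the ileal bile acid binding protein, was the lower member, at 3.18, 3.23, 2.87 and 3.09 against a mean of 13.30 in Ileum. Its difference of -0.77 ± 0.13 rests on that tissue, since the median of the other arrays was 3.06, and the call was lost against the spread between tissues. Of 35 genes of drug and alcohol metabolism 30 were higher, 2 lower and 17 highest (median 3.08). Besides CYP2E1 and SULT2A1 the largest differences were those of CYP2C33 (8.81 ± 0.28; 11.93, 11.89, 12.16 and 11.62 in liver) and UGT2B31 (8.31 ± 0.16; 12.14, 11.74, 11.85 and 11.83). The lower members were GSTA4 (-0.47 ± 0.14) and CYP2D25 (-0.33 ± 0.08), both lost against the spread between tissues and GSTA4 also without the Iberian male's liver. A second probe of CYP2D25 was higher by 8.32, so its direction depends on the probe.

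Of 18 genes of glucose and fructose metabolism 16 were higher and 11 highest (median 2.41). PCK1, the cytosolic gatekeeper of gluconeogenesis, was at 12.93, 12.49, 12.47 and 12.72 with Back fat tissue next at a mean of 10.58, and the mitochondrial form PCK2 was at 10.28, 10.22, 9.99 and 10.24 and no higher than 6.84 elsewhere. FBP1 (fructose bisphosphatase) was at 12.19, 12.65, 12.20 and 11.83. SLC2A2 (GLUT2), the transporter through which hepatocytes release glucose, was at 8.61, 8.09, 8.56 and 8.91 against at most 4.71. PHKG2, a phosphorylase kinase subunit, was the lower member (-0.32 ± 0.10, adjusted p = 0.0057), lost against the spread between tissues, in differences within animals (adjusted p = 0.050) and without the Iberian male's liver.

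Most genes of fatty acid and cholesterol metabolism were higher in liver. In fatty acid oxidation and ketogenesis 21 of 23 genes were higher (median 1.64) and 5 highest. ACSL1, which activates fatty acids, was at 12.08, 12.61, 12.50 and 11.78 and ACAA2 (acetyl-CoA acyltransferase) at 11.52, 11.74, 11.99 and 11.998, with Diaphragm muscle next for both, at means of 11.07 and 10.51. FABP1 was at 10.96, 11.69, 11.11 and 11.43, and Ileum was almost as high, since the contrast of liver with Ileum (0.48) did not pass. In fatty acid synthesis 12 of 15 genes were higher (median 1.10) and 2 highest. ELOVL6, an elongase, was at 11.98, 11.93, 12.20 and 12.09 and DGAT2, of triglyceride synthesis, at 10.01, 10.10, 10.03 and 9.68, both under Back fat tissue with means of 12.30 and 11.23. ME1 (malic enzyme), a source of NADPH for lipid synthesis, was the lower member at 5.31, 5.31, 5.56 and 5.27 against 10.53 in Back fat tissue (difference -1.69 ± 0.15), lost against the spread between tissues. All 12 genes of cholesterol synthesis and uptake were higher (median 2.14). INSIG1, the sterol sensor, was at 11.66, 11.19, 11.32 and 12.06, and TM7SF2, SC5D and MSMO1, enzymes of the late steps, had differences of 3.07 ± 0.14, 3.02 ± 0.20 and 2.88 ± 0.18. Hypothalamus was the next tissue for these 4 genes.

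Regulatory genes were examined next. Of 16 hepatocyte transcription factors and nuclear receptors 11 were higher (median 0.77) and 2 highest in liver. NR5A2 was at 8.92, 8.49, 8.68 and 8.53 and HNF4A at 9.74, 10.44, 9.57 and 9.07. For both Ileum came next, and with a mean of 9.36 for HNF4A it did not pass as lower than liver (0.34). FOXA1 and GATA4 were higher than the mean of the other tissues by 3.69 ± 0.17 and 2.63 ± 0.13, but Stomach was above liver for both, with means of 8.18 and 8.28. Of 15 genes of the growth hormone and IGF axis 5 were higher and 4 lower (median 0.08), shares near the 26.2% and 33.9% of all named genes. IGFBP2 was at 10.50, 10.28, 9.83 and 9.76 and GHR (growth hormone receptor) at 7.56, 7.49, 7.95 and 7.63, under Back fat tissue with 8.99. The lower members were IGFBP5 (-2.13 ± 0.26), IGFBP6 (-1.65 ± 0.20), IGF1R (-1.17 ± 0.13) and STAT5A (-0.73 ± 0.11). The call of GHR and that of STAT5A were lost against the spread between tissues. Of 11 genes of iron and haem handling 9 were higher (median 1.36), led by TF, HPX (hemopexin), HAMP (hepcidin) and HMOX1, which was at 9.02, 9.25, 9.01 and 9.64.

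More genes of the citrate cycle were higher than lower. Of its 23 genes 13 were higher and 4 lower, with a median of 0.38, against 26.2% and 33.9% of all named genes. The lower members were thus a smaller share than among all named genes. Against single tissues the median of the list was negative for 5 of 15, down to -0.89 for Diaphragm muscle. IDH1, the cytosolic isocitrate dehydrogenase, was at 11.03, 11.10, 10.92 and 10.68 (difference 2.73 ± 0.16). CS (citrate synthase), the entry enzyme, was at 9.15, 9.52, 9.12 and 8.99, under the mean of every other tissue (difference -1.72 ± 0.10, adjusted p = 1.2e-21), with Blood nearest at 9.41, though single arrays elsewhere went down to 9.29, inside the range of liver. MDH1 (-1.12 ± 0.12), SUCLA2 (-1.09 ± 0.24) and IDH3A (-1.03 ± 0.13) were lower as well, and these 3 calls were lost against the spread between tissues.

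**Figure D2:**
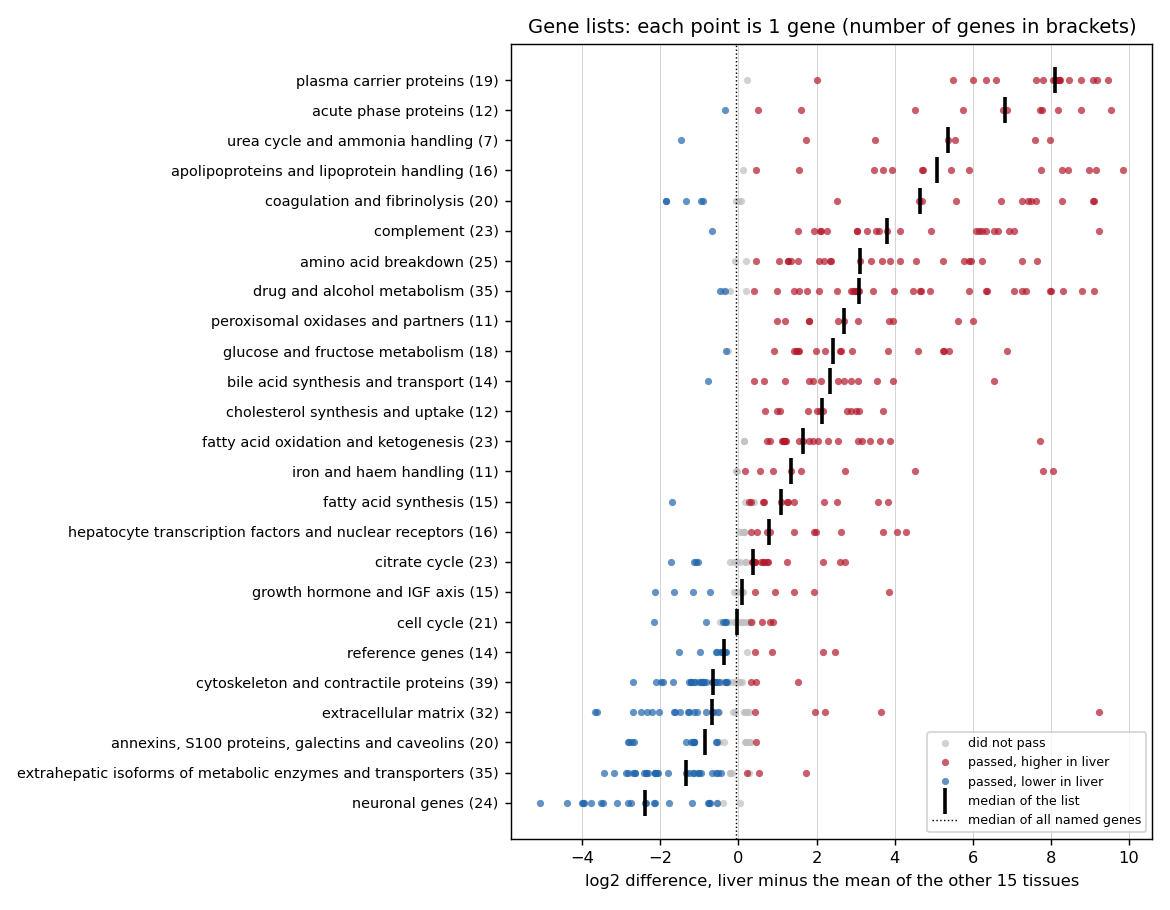
Log2 difference of liver from the mean of the other 15 tissues for every gene of 25 lists, with red for genes that passed upwards, blue downwards and grey for those that did not pass; black bars are list medians and the dotted line the median of all named genes (-0.07). Plasma proteins lie at the top with medians up to 8.11, and neuronal genes and extrahepatic isoforms at the bottom with -2.39 and -1.35.

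The 12 named genes with the widest gap below all other arrays were MLLT3, CHST10, B3GALNT1, PLEKHB2, SNRPN, DOCK9, OXCT1, GAS6, PPP3CB, TIMP1, EPDR1 and SLC25A12. All 12 were also lower than each other tissue by the pairwise contrasts. MLLT3, a subunit of a transcription elongation complex, was at 3.64, 3.95, 4.27 and 4.18 in liver and never under 5.47 elsewhere, and its second probe was lower too (differences -2.94 and -1.70). CHST10, a sulfotransferase of the HNK-1 glycan, was at 4.69, 4.70, 4.33 and 4.22 against at least 5.58. B3GALNT1, which makes the glycolipid globoside, was at 3.64, 3.77, 2.99 and 3.30 (difference -3.86 ± 0.20), while its other probe differed by -0.22. Some of the 12 had higher signals in liver and were still under every other array. PLEKHB2, a protein of recycling endosomes, was at 7.42, 7.38, 7.23 and 7.34 against at least 8.15, PPP3CB, a catalytic subunit of calcineurin, at 7.37, 7.35, 6.81 and 7.09 against at least 7.86, and SNRPN, a small nuclear ribonucleoprotein, at 7.15, 6.68, 6.94 and 6.90 against at least 7.77. TIMP1, an inhibitor of matrix metalloproteinases, was at 6.10, 5.91, 5.96 and 6.21 against at least 6.67, and GAS6, a ligand of the TAM receptors, at 4.44, 4.70, 4.88 and 4.81 against at least 5.38. DOCK9, an exchange factor for CDC42, was at 4.83, 4.63, 4.38 and 4.45, and EPDR1 at 4.03, 3.86, 3.81 and 4.24. No single list held all of these genes, but OXCT1 and SLC25A12 were both in the list of enzyme and carrier forms described next. The differences of the 12 genes ran from -1.63 ± 0.13 for PPP3CB to -3.86 for B3GALNT1. They were smaller than those of the widest gaps above, which began at 7.61.

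Forms of metabolic enzymes and carriers known from other organs were lower as a list. Of 35 such genes with a probe 28 were lower, 3 higher and 3 lowest of all tissues, with a median of -1.35, and the median of the list was negative against each of the 15 tissues, from -0.37 for Thyroid gland to -1.23 for Biceps femoris muscle. OXCT1, with which other organs burn ketone bodies, was at 4.44, 4.39, 4.61 and 4.37 in liver and never under 5.12 elsewhere (difference -3.43 ± 0.17, adjusted p = 3.1e-24). HK1 (hexokinase 1) was at 6.78, 6.97, 6.47 and 6.94 against at least 7.26 (-2.42 ± 0.13), and SLC25A12, the aspartate-glutamate carrier of muscle and brain, at 5.55, 5.55, 5.39 and 4.88 against at least 5.99 (-2.65 ± 0.11). FABP5 (-3.19 ± 0.20), PFKM (-2.88 ± 0.18), CKB (brain creatine kinase; -2.84 ± 0.25), ALDOC (-2.65 ± 0.19) and PFKP (-2.06 ± 0.19) were lower too, with ranges that overlapped those of the other arrays. Of these, PFKM and ALDOC lost the call against the spread between tissues.

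Set beside each other within a step, the liver form was raised and the other forms were mostly not. For glucose transport SLC2A2 was higher by 5.25 ± 0.12, whereas SLC2A3 was lower (-1.35 ± 0.21, lost against the spread between tissues), SLC2A1 did not pass (-0.22 ± 0.17) and SLC2A4 passed narrowly upwards (0.22 ± 0.09, adjusted p = 0.042), a call lost against the spread between tissues, in differences within animals, with an intensity trend, without the arrays of the Large White male, without either Iberian liver and, at an adjusted p of 0.053, without the 3 arrays with albumin. FBP1 was higher by 5.27 ± 0.19 and FBP2 lower by -0.58 ± 0.20, the latter lost against the spread between tissues, in differences within animals (adjusted p = 0.10) and without either Iberian liver. PYGL, the liver glycogen phosphorylase, was at 10.55, 10.15, 9.99 and 10.47, above all other arrays (1.46 ± 0.10), and the muscle form PYGM at 4.85, 4.85, 4.65 and 4.99 (-2.13 ± 0.27). MAT1A was higher by 5.91 ± 0.11 and MAT2A lower by -0.67 ± 0.17. CPT1A was higher by 1.56 ± 0.11, CPT1B (muscle) lower by -1.15 ± 0.14 and CPT1C (brain) by -0.45 ± 0.15. For fatty acid binding proteins FABP1 was higher by 7.73 ± 0.25, and FABP3 (-2.37 ± 0.35), FABP4 (-2.14 ± 0.37) and FABP5 were lower. FABP2, a further form with a probe, did not pass as lower. SUCLG2, the GTP-forming succinyl-CoA ligase subunit, was at 10.14, 10.18, 10.39 and 10.31, above all other arrays (2.16 ± 0.25), and the ATP-forming SUCLA2 at 7.37, 7.49, 7.25 and 7.22. The calls of FABP3, FABP4, PYGM, MAT2A, CPT1B and CPT1C were lost against the spread between tissues. There were exceptions. ARG2, the extrahepatic arginase, was higher in liver as well (1.73 ± 0.15; 7.15, 6.29, 7.71 and 7.58), with 2 of its 3 probes passing. PFKL, called the liver type of phosphofructokinase, did not pass (-0.03 ± 0.14). Lactate dehydrogenase was little different, with LDHA at 0.49 ± 0.17 (lost against the spread between tissues and without either Large White liver) and LDHB at 0.27 ± 0.12 (adjusted p = 0.056, past the threshold without the Iberian male's liver).

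**Figure D3:**
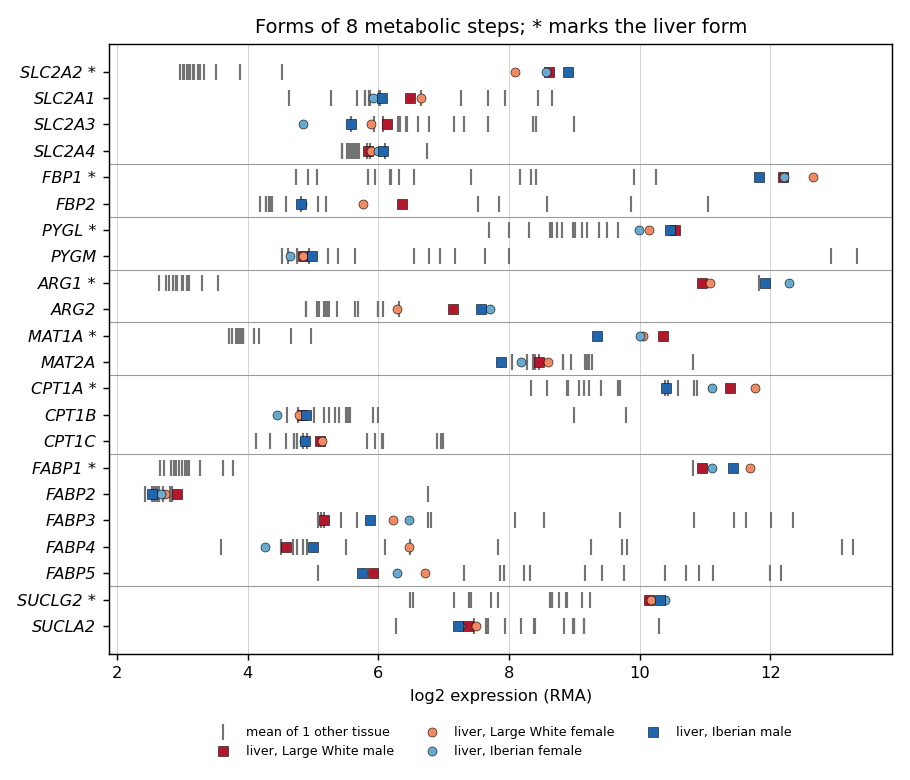
Log2 level of the forms of 8 metabolic steps, with coloured points for the 4 livers, grey ticks for the means of the 15 other tissues and * on the liver form. The liver forms sit at or near the upper end of their own tissue range and most other forms in the lower part of theirs, with SLC2A4 and ARG2 as exceptions; levels of different probes are not comparable.

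In 3 further lists more genes were lower than higher. This also held for all named genes (33.9% and 26.2%), but the lower share was larger in each of the 3 lists. Of 39 genes of the cytoskeleton and contractile proteins 28 were lower and 3 higher (median -0.66), with a negative median against 13 of 15 tissues. VIM (vimentin) was at 9.33, 9.66, 9.33 and 9.56, PFN2 (profilin 2) at 6.48, 6.63, 7.03 and 7.12 and STMN1 (stathmin) at 8.86, 8.39, 7.99 and 8.48, with differences of -1.92 ± 0.17, -2.70 ± 0.12 and -1.97 ± 0.14. CALD1 (caldesmon) was higher at 11.17, 11.25, 11.25 and 11.16 (1.53 ± 0.19). Of 20 annexins, S100 proteins, galectins and caveolins 12 were lower and 1 higher (median -0.85). LGALS1 (galectin 1) was at 7.84, 7.60, 7.23 and 7.88, S100A6 at 5.67, 5.95, 5.92 and 5.93 and S100B at 5.60, 5.55, 5.17 and 5.69. All 3 were under all other arrays, but the contrast with each tissue passed for 0 genes of this list. LGALS3 was lower by -2.79 ± 0.24. Of 32 genes of extracellular matrix 18 were lower and 5 higher (median -0.67). The structural COL15A1 (-3.66 ± 0.21) and LUM (lumican; -3.62 ± 0.24) were the lowest, but the medians of the list were -3.20 and -2.93 against the 2 fat tissues and 0.63 against Blood. The higher members were VTN, FN1 (fibronectin), which circulates in plasma and was at 12.95, 12.85, 12.72 and 12.78 above all other arrays, and POSTN (2.22 ± 0.45), FBLN1 (1.97 ± 0.17) and BGN (0.42 ± 0.16), where the other arrays overlapped liver. POSTN and BGN lost the call against the spread between tissues, and BGN also without the Large White female's or the Iberian male's liver.

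The largest negative differences belonged mostly to genes known from nerve and endocrine cells, and for the list of neuronal genes they differed widely between tissues. Of 24 neuronal genes 21 were lower (median -2.39). The median of the list was -5.78 against Olfactory bulb and -5.74 against Hypothalamus, but -0.02 against Back fat tissue and -0.05 against Abdominal fat tissue. CPE (carboxypeptidase E) was the lowest of all named genes at 4.29, 4.81, 4.62 and 5.36 in liver (-5.07 ± 0.18, adjusted p = 9.8e-31), with a median of 9.53 in the other arrays and Blood under liver at a mean of 3.94. TUSC3 (-4.51 ± 0.17), SCG2 (-4.40 ± 0.27), CLDN11 (-4.22 ± 0.28), UCHL1 (-4.00 ± 0.29), MAP2 (-3.97 ± 0.16), SNAP25 (-3.96 ± 0.26), CHGB (-3.76 ± 0.23) and F2RL2 (-3.71 ± 0.23) came next, together with B3GALNT1. SCG2, CLDN11, SNAP25 and CHGB lost the call against the spread between tissues. All 15 genes of skeletal muscle were lower (median -1.23), but the median of the list was -9.14 and -9.13 against the 2 muscles and between -0.61 and 0.38 against the others. Thus CKM (muscle creatine kinase), at 3.57, 3.92, 3.35 and 3.71 in liver, had a difference of -2.07 ± 0.37, and its call was lost against the spread between tissues, like those of MYH7, MYOT and TNNC2.

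**Figure D4:**
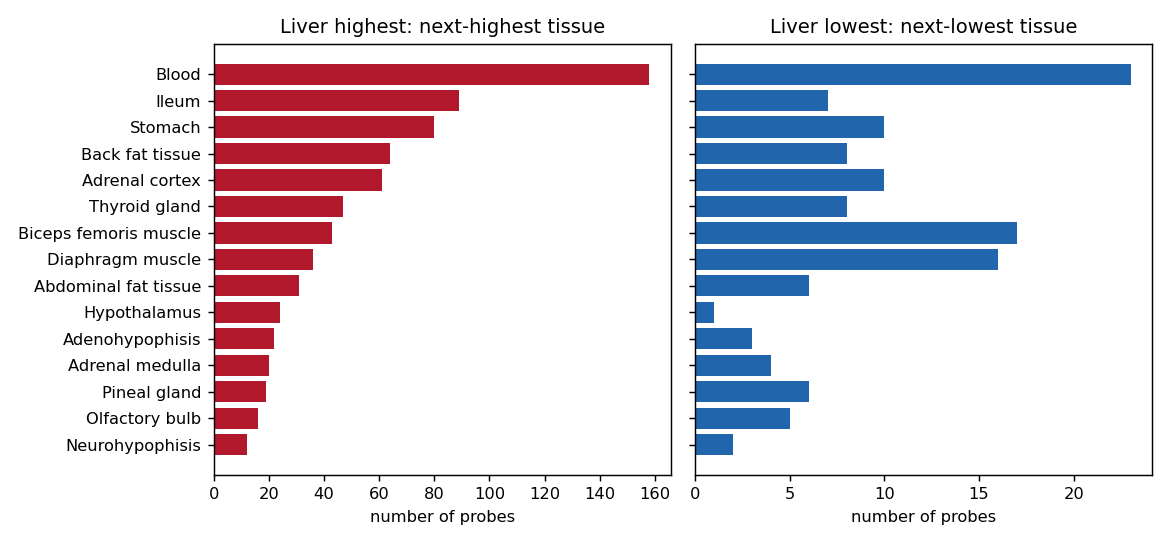
Number of probes by the tissue nearest to liver, for the 722 probes where liver was highest (left) and the 126 where it was lowest (right). Blood leads both with 158 and 23 probes, followed by Ileum and Stomach on the left and by the 2 muscles on the right.

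The tissue next to liver differed between the directions. Where liver was highest, Blood was next for 158 probes (21.9%), Ileum for 89 (12.3%), Stomach for 80 (11.1%) and Back fat tissue for 64 (8.86%). The median difference to the next tissue was 3.40 for Blood and 1.89 for Ileum. Where liver was lowest, Blood was nearest for 23 probes (18.3%), Biceps femoris muscle for 17 (13.5%) and Diaphragm muscle for 16 (12.7%), and the median difference to Blood was -0.83. Without Blood liver was lowest for 269 probes, the 126 among them, and below all other arrays for 266.

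Liver was then set against Ileum and Stomach, other organs of the digestive tract. Against Ileum 5183 probes (21.7%; 24.3% of named genes) were higher in liver and 5845 (24.4%; 34.7%) lower, and against Stomach 3767 (15.7%; 19.8%) and 4715 (19.7%; 26.6%). All 19 plasma carriers were higher than in Ileum (median 8.49), as were all 11 peroxisomal genes (median 3.37). For the urea cycle and complement the medians against Ileum were 2.77 and 1.99. OAT (ornithine aminotransferase), at 8.78, 8.83, 10.23 and 10.42 in liver, was lower than in Ileum by -1.67, although it was higher than the mean of all tissues by 0.46 ± 0.15, a call lost against the spread between tissues, in differences within animals (adjusted p = 0.17) and without either Iberian liver. FABP6 was lower than in Ileum by -10.21, LGALS4 by -6.90, TFF3 by -6.41 and KRT19 by -6.02, all products of intestinal epithelium. Of 21 cell cycle genes 18 were lower than in Ileum, with a median of -2.52, whereas against the mean of all tissues 4 were higher and 5 lower (median -0.03). The latter counts were smaller shares than the 26.2% and 33.9% of all named genes. CCNB1 was at 6.29, 5.82, 5.11 and 5.58 in liver and lower than in Ileum by -4.09, and RRM2 by -3.58. Against Stomach 6 of the 16 hepatocyte factors were higher and 5 lower (median 0.20), and the medians of plasma carriers and complement were 8.15 and 2.92.

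Markers of the other cells of the organ were examined next. Of 13 genes of Kupffer cells and macrophages 10 were higher (median 1.52), against 26.2% of all named genes. The mean level of the list was between 8.44 and 8.74 in the 4 livers, above all other arrays, which reached 8.22. Against Ileum alone 6 of the 13 were higher and 3 lower, with a median of 0.44. CD5L, secreted by tissue macrophages, was at 9.08, 9.85, 9.61 and 9.75 and no higher than 5.92 elsewhere. CD14, the receptor for endotoxin, was at 8.59, 8.77, 8.15 and 7.94 against at most 6.37, and MRC1, the mannose receptor, at 9.08, 9.28, 9.24 and 9.19 against at most 8.55. Of 12 endothelial genes 5 were higher and 2 lower (median 0.16), against 26.2% and 33.9% of all named genes. FCGR2B, a receptor of sinusoidal endothelium, was at 9.63, 9.24, 9.39 and 9.30, above all other arrays. CDH5 (1.13 ± 0.18) and TEK (1.17 ± 0.21), found in vessels at large, were higher and VWF and PECAM1 (-0.49 ± 0.13) lower, and of these 4 all but VWF lost the call against the spread between tissues. Of 9 genes of stellate cells and fibroblasts 5 were lower (median -0.77), against 33.9% of all named genes. RGS5 was at 6.35, 5.85, 5.81 and 6.98 (-2.65 ± 0.24). Of 9 bile duct genes 2 were higher, no larger a share than the 26.2% of all named genes, MMP7 (4.73 ± 0.20) and CLDN4 (2.27 ± 0.22), while KRT19, the usual duct keratin, was at 5.41, 4.89, 5.06 and 5.05 and lower (-0.68 ± 0.23), a call lost against the spread between tissues and without the Large White female's liver. The lists of T, NK and B cells, neutrophils, and red cells and platelets had median differences between 0.06 and 0.17, and Blood was far higher in all 3. The part of blood cells left in the liver in the results was not tested.

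Reference genes often used for normalization were not level. Of 14 such genes 4 were higher and 9 lower in liver (median -0.38), against 26.2% and 33.9% of all named genes. HPRT1 was at 10.53, 10.15, 10.65 and 10.73, above all other arrays (2.16 ± 0.13), and GUSB at 10.14, 9.74, 10.24 and 10.64 (2.47 ± 0.18), whereas YWHAZ was at 6.55, 5.82, 5.56 and 5.38 (-1.53 ± 0.23).

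The 4 livers were alike in most genes. Each liver array had another liver array as its nearest by squared correlation. The standard deviation (SD) over the 4 livers had a median of 0.215 over all probes. The same median ran from 0.166 to 0.319 in the other tissues, with a middle value of 0.180, so that liver lay in the upper part. Among the 690 probes above all other arrays 12 had an SD over 1, and among the 132 below 0 did, with a highest SD of 0.570. Of 183 probes with an SD over 1 in liver, the Iberian male was farthest from the median in 70 and the other animals in 34 to 41 each. With 2 pigs per breed an exact permutation test cannot go below p = 0.333, so no test of breed or sex within liver was made.

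**Figure D5:**
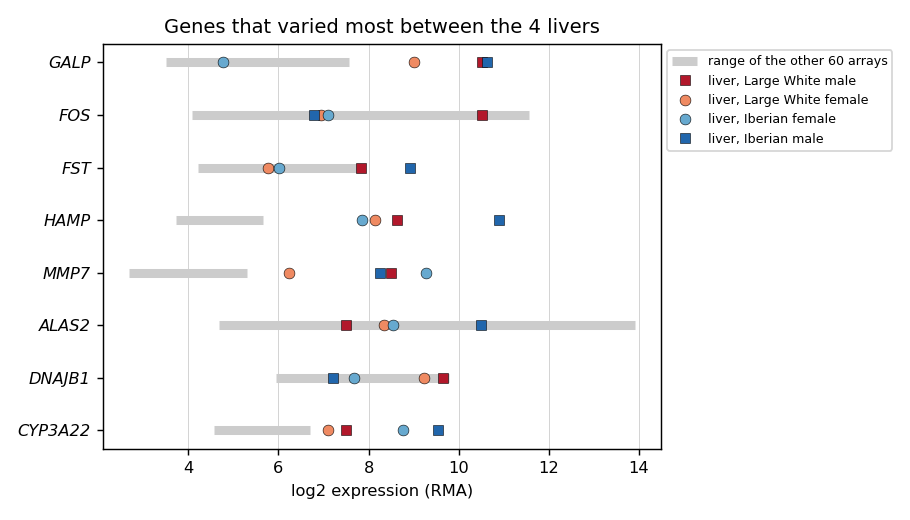
Log2 level of the 8 named genes, bright in liver, with the largest SD over the 4 livers; points are the livers and grey bars the range of the other 60 arrays. HAMP and ALAS2 are highest in the Iberian male, FOS in the Large White male, and GALP is low in the Iberian female alone.

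The genes that varied most among bright ones were GALP, FOS, FST, HAMP, MMP7, ALAS2, DNAJB1 and CYP3A22. The probe that the annotation names GALP, a name that may be wrong for it, was at 10.52, 9.004, 4.76 and 10.63, and the low value of the Iberian female lay inside the range of the other tissues (3.51 to 7.57). HAMP, which encodes the iron hormone hepcidin, was at 8.64, 8.14, 7.86 and 10.89, highest in the Iberian male and above all other arrays in each liver. In the same Iberian male liver the red cell genes ALAS2 (7.49, 8.35, 8.53 and 10.49) and AHSP (6.07, 6.09, 6.48 and 8.89) were highest, and the mean of the red cell and platelet list was 6.81 against 5.69 to 6.02 in the other livers. Whether red cell precursors or blood took part in the HAMP value was not tested. FOS, an immediate early gene, was at 10.52 in the Large White male and between 6.79 and 7.09 in the others, and DNAJB1, a heat shock chaperone, at 9.66 and 9.23 in the Large White livers and 7.68 and 7.22 in the Iberian ones. FST (follistatin) was higher in the males (7.82 and 8.93) than in the females (5.77 and 6.02). MMP7 (matrilysin) was at 8.50, 6.23, 9.27 and 8.24, and CYP3A22, a drug-metabolising enzyme, at 7.50, 7.10, 8.77 and 9.53, with both Iberian livers above both Large White ones. Such splits of 2 against 2 describe these animals only.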

How the data were processed

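RNA of 16 tissues from 4 pigs was hybridised to 64 Affymetrix porcine arrays. Signals were extracted by the authors in GCOS (also listed among the submitters' processing tools), and RMA was run with libaffy over the whole set of arrays, in versions that the sources used here do not give. What was deposited is a log2 value for each of 24123 probe sets. RMA equalises the distributions of the arrays, so every difference is relative to the other probes, and the deposited table holds no detection calls, so low levels have no order. Depth does not apply to arrays, and the number of arrays (4 per tissue, 1 per animal) limits the precision.

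The 188 control probe sets were left out. Gene symbols are those of GEO's annotation of the chip and may be outdated; 9961 probes were matched by Entrez number to RefSeq genes of Sscrofa11.1. Probes with 1 symbol other than a LOC number (9815) were named, the brightest per gene. No sequences are printed.

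limma 3.58.1 (R 4.3.3) was fitted with tissue, breed and sex on all 64 arrays. Liver was contrasted with the mean of the other 15 tissues and with each of them, and liver was called highest or lowest where the largest of the 15 pairwise p passed after adjustment. Extreme probes were found in Python 3.11.15 with pandas 2.3.3, and matplotlib 3.10.9 made the plots. The fit was tested on simulated data. All tissues came from the same 4 animals, which the labels give by breed and sex. After removing tissue means the liver arrays correlated with other tissues of the same animal by 0.175 on average (60 pairs, 49 over 0.1). With other animals the mean was -0.0585 (180 pairs). This value nearly follows from the first, since the 4 centred values of a tissue sum to 0, and is no separate result.

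The members of the comparison, the 36 lists and the naming rule were chosen with earlier results of these data known. The rule named 4 hepatocyte markers, the 12 genes with the widest gap above and below all other arrays, the 10 with the largest difference each way, of each list the 4 with the largest difference and those against the trend, all forms of the metabolic steps, the 8 most variable bright genes, and up to 2 genes each way against Ileum. This gave 233 genes, not all of which are described. Of these, 71 have several probes, and probes of 3 (SAA2, GLUL and CYP2D25) passed in both directions. Lists are described by counts and medians without a test. A planned search of promoters was not made, as no promoter sequences were used here. Alternatives were an animal block, quantile normalization, the natural logarithm, a filter on dim probes, an intensity trend, the other arrays as 1 group, differences within animals, size and margin thresholds, all probes of a list, and leaving out blood, arrays that stand apart, livers or animals. Leaving out the 3 other arrays with the highest albumin was added after seeing the data.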

Additional observations from a re-analysis of the deposited data

Results flagged for a closer look

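The 4 livers of each of the 233 named genes were checked for 1 value far from the other 3, by Dixon's test at the 95% level. It marked 12 genes (5.15%), where chance marks about 1 gene in 20, and 292 of all named genes (4.43%). In 6 of the 12 the Iberian male was the value apart. It was high for AHSP (8.89 against 6.07 to 6.48), DCN (8.24 against 7.69 to 7.76), LPL (5.02 against 4.48 to 4.51) and LTF (4.88 against 4.08 to 4.14), and low for CLDN4 (7.74 against 8.98 to 9.20) and GSTA4 (6.70 against 7.74 to 7.80). In the Large White male FOS was high (10.52 against 6.79 to 7.09), and S100A6 (5.67 against 5.92 to 5.95) and LYVE1 (6.25 against 6.42 to 6.44) were low. In the Iberian female CD3G was low (4.43 against 4.64 to 4.68) and ME1 high (5.56 against 5.27 to 5.31), and in the Large White female STAT5A was low (5.71 against 6.10 to 6.16).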

How the results depend on the processing

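The animal numbers pair the arrays, since all tissues came from the same pigs. With this replicate block in place of breed and sex, 4925 probes were higher and 6956 lower than the mean of the other tissues, 719 of the 722 highest and 122 of the 126 lowest probes were called again, and all 233 named genes kept their call. With the 60 other arrays as 1 group 2013 probes were higher and 1514 lower, and 79 of the 233 named genes lost their call. Its error holds the spread between tissues by construction. A difference of at least 1 log2 unit left 1848 higher and 1977 lower probes. With only the probes brighter than the median tested, 2882 were higher than the other tissues, 2886 than Ileum and 2342 than Stomach, 337 were highest and 357 above all other arrays. A margin of at least 0.5 left 429 probes above and 19 below all other arrays. Without Blood liver was lowest for 269 probes and below all other arrays for 266.

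Leaving out 1 liver or 1 animal at a time gave 4254 to 4720 higher and 6090 to 6506 lower probes, 4318 to 4895 and 5119 to 5560 against Ileum, 3209 to 3741 and 4007 to 4591 against Stomach, 597 to 720 highest and 77 to 120 lowest, and 714 to 816 above and 163 to 259 below all other arrays. Among the 233 named genes 144 had the same call under every setting run, and 0 called genes changed direction. Of the list medians 3 changed sign, all near 0. Without Blood those of the cell cycle and of pancreatic acini became 0.026 and 0.014, and with all probes that of enterocytes became -0.17. The 3 other arrays with the highest albumin, left out after seeing the data, ended the calls of SLC2A4 and TAGLN2. The planned search of promoter motifs was not run, as no promoter sequences were used here. With 4 livers, and no detection calls in the values used, differences between low levels are the least certain.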

Other observations

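Markers of cells from other organs were read in liver as well. Of 10 adipocyte genes 6 were lower and 1 was higher and the others did not pass, and the medians against Back fat tissue and Abdominal fat tissue were -4.66 and -4.51. LPL (lipoprotein lipase) had a difference of -2.37 ± 0.29 and ADIPOQ (adiponectin) of -1.57 ± 0.32, both lost against the spread between tissues. The higher member was AGT (angiotensinogen), a plasma protein that liver also makes, at 11.30, 10.57, 12.02 and 12.30 in the order Large White male, Large White female, Iberian female and Iberian male, with a mean of 11.55, under Abdominal fat tissue (11.90) and Back fat tissue (11.86). Its call was lost against the spread between tissues as well.

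Of 9 enterocyte genes 3 were higher and 3 lower (median 0.01), shares near the 26.2% and 33.9% of all named genes. The median of this list against Ileum was -5.99. DPP4, a peptidase of brush border and bile canaliculi, was at 11.37, 11.60, 11.55 and 11.42 in liver, above Ileum with a mean of 9.84 (difference to the mean of all tissues 5.24 ± 0.25). Of 7 genes of pancreatic acini 1 was lower (median -0.06), a smaller share than the 33.9% of all named genes. The lower one was the probe named AMY2 (-0.68 ± 0.18), a call lost without the Large White female's liver. It read between 11.12 and 12.25 on average in all 16 tissues, so that it may not measure the pancreatic amylase that its name stands for.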
